A study of Mus musculus with 7 samples.

Results

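Open chromatin was described at the loci of 8 genes that mark and build the neural crest mesenchyme of the face: the transcription factors Twist1, Twist2, Prrx1, Prrx2, Alx1 and Alx4 and the receptors Pdgfra and Pdgfrb. A locus was the gene body plus 100 kb on either side, and every peak that shared at least 1 bp with it was kept, in each of 7 peak lists. The 8 loci are 8 of 20665 autosomal protein-coding genes. After joining overlapping peaks of all libraries they held 175 of 128642 autosomal regions. No peak value enters the rule, but the genes were proposed with earlier results of these data known.

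The lists come from ATAC-seq, which reads where a transposase can reach the DNA, here in its Omni-ATAC form. Facial ectoderm was lifted by enzyme digestion from the mesenchyme of the first pharyngeal arches of mouse embryos at day 11.5 (2 libraries). Cells that the submitters name Sox2-positive dental epithelial stem cells were sorted from the labial cervical loop of lower incisors at postnatal day 2 (P2; 2 libraries), in a line with GFP under the endogenous Sox2 promoter. Whole lower incisor, whole lower first molar and whole upper first molar at P2 gave 1 library each. The labels name no strain, sex, treatment or number of pooled animals. Nothing states that the replicates were separate animals, so their spread may be technical. For the sorted cells the labels describe dissection of the cervical loop and the sort itself, and no other step that parts epithelium from mesenchyme.

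In the developing face, cranial neural crest cells form the mesenchyme under the ectoderm, and later the dental papilla, pulp, odontoblasts and follicle of the tooth. Twist1 and Twist2 are basic helix-loop-helix factors that keep mesenchyme in an undifferentiated state. Prrx1, Prrx2, Alx1 and Alx4 are paired-type homeodomain factors of craniofacial mesenchyme. Pdgfra is the receptor for PDGF-A and PDGF-C on neural crest mesenchyme, and Pdgfrb the PDGF-B receptor of pericytes and other mesenchymal cells. Dental epithelium, which gives rise to ameloblasts, is an ectodermal tissue in which these genes are not classed as markers.

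The start of Twist1 and the start of Twist2 carried a peak in all 7 libraries. The bases just before each gene start are shown because the text returns to these 2 starts, with CG dinucleotides in capitals (RefSeq, GRCm38.p6, plus strand, chr12:33957421-33957670 and chr1:91801211-91801460).
Twist1: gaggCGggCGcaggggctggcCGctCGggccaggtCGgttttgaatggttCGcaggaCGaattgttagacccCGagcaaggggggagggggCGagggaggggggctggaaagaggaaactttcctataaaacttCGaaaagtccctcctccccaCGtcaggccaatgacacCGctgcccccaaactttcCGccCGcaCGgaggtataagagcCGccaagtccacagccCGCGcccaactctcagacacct
Twist2: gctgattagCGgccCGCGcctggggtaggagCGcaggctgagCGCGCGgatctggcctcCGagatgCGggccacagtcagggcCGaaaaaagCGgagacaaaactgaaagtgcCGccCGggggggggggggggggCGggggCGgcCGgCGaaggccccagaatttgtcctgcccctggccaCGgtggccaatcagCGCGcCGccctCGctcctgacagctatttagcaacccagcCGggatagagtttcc
Twist1 had 18 CG dinucleotides in these 250 bases and Twist2 had 23, against a median of 6 over 32851 RefSeq promoter windows of the same length. Prrx2 had 21, while Prrx1 and Pdgfra had 4 each. The RefSeq promoter table matched 5 of the 8 genes. The E-box letters CANNTG, which bind Twist-type factors and read the same on both strands, occurred in 66.2% of all windows and, of the 5 genes, in the window of Pdgfra. The homeodomain core TAATTA, also the same on both strands, occurred in 4.84% of all windows and in that of Prrx1. The SOX core ATTGTT or its reverse AACAAT occurred in 9.42% of all windows and in that of Twist1. These are matches of letters and not measured binding sites.

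List length differed between libraries and sequencing depth is unknown, because peak lists hold no read counts. Ectoderm gave 80850 and 49719 autosomal peaks, the sorted cells 41829 and 38326, incisor 62074, lower molar 68877 and upper molar 67193. Each result is therefore given for the full lists and for the 38000 autosomal peaks of each list with the highest −log10 p. The weakest peak kept then had a −log10 p of 2.94 in Sox2-positive replicate 2, 3.33 in replicate 1, 4.01 in incisor and between 3.82 and 4.79 in the ectoderm and molar libraries, so equal numbers do not mean equal thresholds. Fewer cells with an open site and weaker opening in all cells cannot be told apart in such libraries.

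The sorted Sox2-positive cells carried peaks at every one of the 8 loci, as did every other library on the full lists. Of all 20665 autosomal genes, 2659 and 2900 had no peak in Sox2-positive replicates 1 and 2. For their length, the sorted lists were as rich in peaks at the 8 loci as the whole incisor. On the full lists 70 and 75 peaks lay at the loci in Sox2-positive replicates 1 and 2, and 112 in incisor. As a share of the list this was 0.167% (Wilson 95% interval 0.132 to 0.211) and 0.196% (0.156 to 0.245) in the sorted cells and 0.180% (0.150 to 0.217) in incisor. The incisor share lay between the Sox2-positive replicates, with a difference of −0.00109 percentage points from their mean of 0.182% ± 0.0200 (SD, n = 2), and the exact permutation p was 1.00, where the 3 possible assignments allow no value under 0.333. With 38000 peaks per library the counts were 57 and 75 in the sorted cells and 71 in incisor.

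Ectoderm and molars had fewer of these peaks for their list length. The share was 0.111% (0.0906 to 0.137) and 0.119% (0.0920 to 0.153) in ectoderm, 0.129% (0.105 to 0.159) in lower molar and 0.127% (0.102 to 0.156) in upper molar. With 38000 peaks per library there were 40 and 38 in ectoderm, 40 in lower molar and 41 in upper molar. Both ectoderm libraries lay below both Sox2-positive libraries with either kind of list. The difference of the mean shares was −0.0665 percentage points on the full lists, larger than the SD within either group (0.00520 and 0.0200), with an exact two-sided permutation p of 0.333, the smallest that 2 against 2 libraries allow. The 3 whole teeth taken as one kind of sample, although they are different organs, had a mean share of 0.145%, against 0.182% in Sox2-positive cells (exact permutation p = 0.300, 10 assignments, higher in both Sox2-positive libraries than in 2 of 3 teeth).

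**Figure D1:**
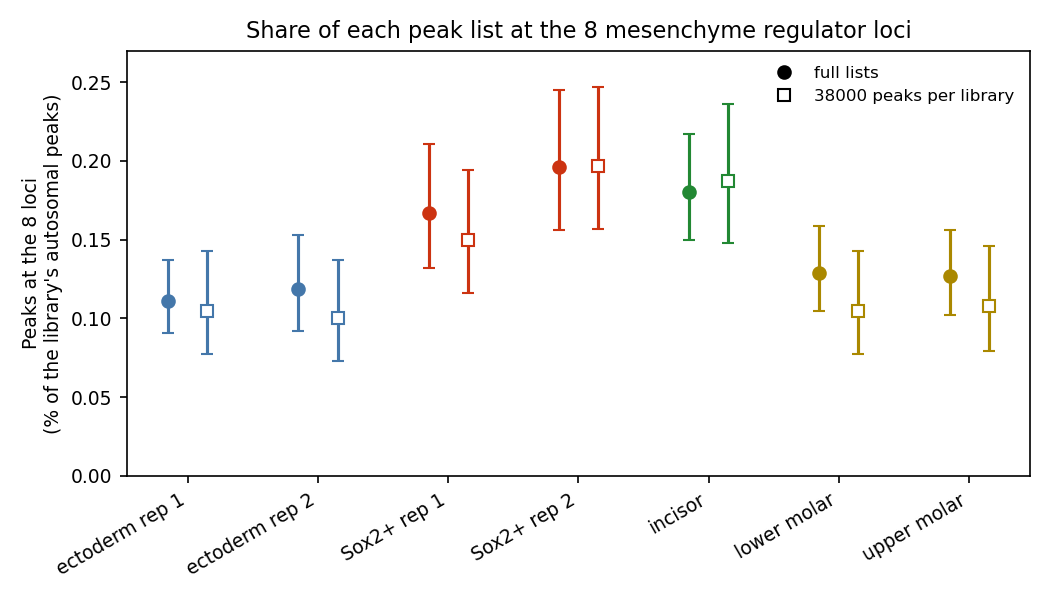
Share of the autosomal peaks of each library that lie within 100 kb of the 8 genes, in percent (y axis), for the 7 libraries (x axis). Filled circles are full lists, open squares the 38000 peaks of highest −log10 p, and bars are Wilson 95% intervals that cover the counting of peaks only. The incisor library lies between the Sox2-positive libraries, and the ectoderm and molar libraries lie below all 3.

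The windows also contain other protein-coding genes, 1 or 2 at most loci and 7 each at Prrx2 and Pdgfrb, and part of the count lies nearer to those. Restricting the count to peaks whose nearest protein-coding gene was one of the 8, a choice made after the neighbours were seen, left 36 and 34 peaks in the sorted cells and 57 in incisor. The other libraries kept 39 and 24 (ectoderm), 43 (lower molar) and 41 (upper molar). With 38000 peaks per library the same counts were 30 and 34 in Sox2-positive cells and 37 in incisor. They were 9 and 11 in ectoderm, 15 in lower molar and 16 in upper molar. At that list length the sorted cells and incisor lay apart from all 4 other libraries.

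Twist1, a short gene on chromosome 12 (33957671 to 33959831) whose window reaches into Hdac9, had 3 peaks in each Sox2-positive library. It had 2 in each ectoderm library, 8 in incisor, 6 in lower molar and 4 in upper molar. Both Sox2-positive libraries exceeded both ectoderm libraries, which was so for 2 of the 8 genes (Twist1 and Pdgfra) and for 1.92% of all autosomal genes on the full lists. The region over the gene start (chr12:33956732-33959146) had a −log10 p of 4.49 and 5.43 in the sorted cells and 6.34 in incisor. Of the 2 other regions that both Sox2-positive libraries had, the first lay downstream of the gene, 4.41 kb from its start, and the second inside Hdac9, 93.9 kb from the Twist1 start (chr12:34051592-34052544). Neither had a peak in ectoderm. The Hdac9 region was open in all 5 P2 libraries, also at 38000 peaks each. Incisor had 5 regions at this locus that neither Sox2-positive library had, the most significant being a 396 bp region 82.4 kb from the gene start (chr12:34040105-34040500, −log10 p 4.82), also seen in both molars. The next (chr12:33963178-33963604), 5.51 kb from the start, was in incisor alone.

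Twist2, on chromosome 1 (91801461 to 91848034), had 13 and 7 peaks in the sorted cells and 15 in incisor. Each molar had 10, and ectoderm had 10 and 3. With 38000 peaks per library the sorted cells had 11 and 7 and incisor 10, while ectoderm had 1 and 0 and each molar 4, so that the sorted cells and incisor no longer overlapped with any other library. The region at the gene start (chr1:91800918-91802296), which all 7 full lists contain, was then found in both Sox2-positive libraries and incisor and in none of the other 4. Its −log10 p was 4.03 and 3.74 in the sorted cells, 4.56 in incisor and 3.02 to 3.76 elsewhere. Upper molar (3.76), lower molar (3.71) and ectoderm replicate 1 (3.70) were thus close to Sox2-positive replicate 2. Their lists of 38000 peaks ended at 4.27, 4.28 and 4.79, against 2.94 in that replicate, so the difference in presence at this start depends on those limits. A region 43.8 kb upstream (chr1:91756883-91757696) was also kept at 38000 peaks in both Sox2-positive libraries and incisor alone. On the full lists it was in both molars too and in no ectoderm library. A further region 91.1 kb downstream of the start, between Twist2 and Hdac4 (chr1:91892604-91893498), was open in all 5 P2 libraries and in no ectoderm library. A region 110 kb from the gene start, nearer to Hdac4 (chr1:91911756-91912660), was in both sorted and both ectoderm libraries and in no whole tooth. Incisor alone had 2 peaks inside the gene, 15.2 and 22.0 kb from its start (chr1:91816662-91817031 and chr1:91823467-91823898), that no other library had.

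Prrx1, on chromosome 1 (163245119 to 163315145, minus strand), did not separate the groups by number. Its window held 6 and 4 peaks in the sorted cells, 7 in incisor, 6 and 6 in ectoderm, 6 in lower molar and 10 in upper molar. With 38000 peaks per library both Sox2-positive libraries, incisor and both ectoderm libraries had 4 each, lower molar had 2 and upper molar 3. Which regions these were differed. A region inside the gene, 45.9 kb from its start (chr1:163266661-163267713), was open in all 5 P2 libraries and neither ectoderm library, with a −log10 p of 5.22 and 4.37 in the sorted cells and 6.32 in incisor. At 38000 peaks it was found in both Sox2-positive libraries and incisor and in no other list. The region over the gene start (chr1:163313191-163313922) behaved the same way at 38000 peaks, and on the full lists lacked a peak in ectoderm replicate 1 alone. Its −log10 p was 4.13 and 3.19 in the sorted cells and 4.56 in incisor. Ectoderm replicate 2 (3.37), lower molar (3.49) and upper molar (3.19) were no lower than Sox2-positive replicate 2, but their lists of 38000 peaks ended at higher values. Ectoderm had instead a region 1.08 kb upstream of that start (chr1:163314731-163315466), shared with Sox2-positive replicate 1 and with no whole tooth. The strongest region of the window in the sorted cells was at Gorab (chr1:163403215-163404236) and was open in all 7 libraries. Another region within 1 kb of the start (chr1:163311809-163312862) was in both ectoderm libraries, Sox2-positive replicate 1, incisor and upper molar. Incisor regions without a sorted peak were a flanking one, also in ectoderm and molars (chr1:163209038-163209766), and another inside the gene in incisor alone (chr1:163284089-163284458).

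Prrx2, on chromosome 2 (30845064 to 30881251), lies among 7 other genes and had the most peaks of the 8, from 20 in Sox2-positive replicate 1 to 30 in incisor. Of its 41 regions, 16 were open in all 7 libraries, and the strongest in the sorted cells lay at Ntmt1 (chr2:30807151-30808890) and Asb6 (chr2:30827354-30828951). Peaks with Prrx2 itself as nearest gene numbered 2 and 4 in Sox2-positive cells and 4 in incisor. At 38000 peaks these were 2, 4 and 3, against 0 in both ectoderm libraries and upper molar and 1 in lower molar. A region inside the gene, 25.4 kb from its start (chr2:30870810-30871505), was open in all 5 P2 libraries and no ectoderm library. At 38000 peaks it remained in both Sox2-positive libraries and incisor alone. Its −log10 p was 3.59 and 4.11 in the sorted cells and 4.93 in incisor. The molars had 4.19 and 4.23, no lower than the sorted cells, but their weakest peaks kept were at 4.28 and 4.27. The gene start (chr2:30845200-30846150) was weak, with a −log10 p of 3.29 in Sox2-positive replicate 2, 3.75 in incisor and no peak in Sox2-positive replicate 1. Incisor regions without a sorted peak lay nearest to Ptges: chr2:30887680-30888032, in incisor alone, and chr2:30901967-30903560, also in ectoderm and molars.

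Pdgfra, on chromosome 5 (75151322 to 75198206), differed between the P2 libraries and ectoderm at its start. Its window held 11 and 10 peaks in the sorted cells, 15 in incisor, 18 in lower molar, 15 in upper molar, and 9 and 6 in ectoderm. With 38000 peaks per library these became 10 and 10 in the sorted cells, 11 in incisor, 9 in each molar, and 3 and 4 in ectoderm, so that every P2 library lay above both ectoderm libraries. A pair of regions upstream of the start (chr5:75149832-75151021 and chr5:75151181-75151646) were open in all 5 P2 libraries at either list length and in neither ectoderm library. The first had a −log10 p of 4.73 and 5.22 in the sorted cells, 6.20 in incisor, 5.23 in lower molar and 5.02 in upper molar. Ectoderm was open further inside the gene, where its strongest peaks lay 3.44 to 4.79 kb (replicate 1) and 3.42 to 4.79 kb (replicate 2) from the start, with a −log10 p of 7.75 and 7.36. The joined region there (chr5:75152769-75157374) was open in all 7 libraries. Another over the start (chr5:75151966-75152430) was in Sox2-positive replicate 2 and the whole teeth. A region near Gsx2 (chr5:75066763-75067811) was in both sorted libraries and every other library except incisor. Incisor regions without a sorted peak were chr5:75158291-75158905, also in lower molar, and chr5:75209978-75210494, in incisor alone. On the full lists Pdgfra was the only one of the 8 genes whose start had a peak within 1 kb in each sorted library and in no ectoderm list, which held for 0.397% of all genes.

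Pdgfrb, on chromosome 18 (61045127 to 61085067), shares its window with 7 other genes, among them Csf1r, a macrophage gene. The window held 8 and 15 peaks in the sorted cells, 19 in incisor, 14 and 7 in ectoderm, 14 in lower molar and 12 in upper molar, and the groups overlapped. Peaks nearest to Pdgfrb itself numbered 5 and 7 in the sorted cells and 9 in incisor, and at 38000 peaks 3 and 7 in the sorted cells, 4 in incisor, 1 in each ectoderm library, 1 in lower molar and 3 in upper molar. A broad region over the lower gene end (chr18:61043785-61046938) was open in all 7 libraries at either list length, with a −log10 p of 5.58 and 6.75 in the sorted cells and 7.90 in incisor. A region at Hmgxb3 (chr18:61176009-61177752) was likewise open in all 7. Incisor regions without a sorted peak lay at Cdx1 (chr18:61020991-61021403, also in ectoderm replicate 1) and Hmgxb3 (chr18:61157163-61157620, also in both molars). Csf1r had no peak within 1 kb of a start in any of the 7 libraries.

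Alx1, on chromosome 10 (103007847 to 103029549), separated incisor from molar. The region at its upper end (chr10:103028158-103029463), which also overlaps Gm34298, had a −log10 p of 5.85 and 5.52 in the sorted cells and 6.68 in incisor, 4.37 and 3.45 in ectoderm, and no peak in either molar. At 38000 peaks it was found in both Sox2-positive libraries and incisor alone. Over the whole window there were 4 and 2 peaks in the sorted cells, 3 in incisor, 5 and 2 in ectoderm and 1 in each molar on the full lists, so that ectoderm overlapped with the sorted cells. At 38000 peaks ectoderm had none. The 1 molar peak, 64.2 kb from the lower gene end (chr10:102943112-102943662), was open in all 7 libraries.

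Alx4, on chromosome 2 (93642434 to 93681341), had 5 and 7 peaks in the sorted cells, 15 in incisor, 16 and 9 in ectoderm, 7 in lower molar and 4 in upper molar. It was the only locus of the 8 where both ectoderm libraries exceeded both Sox2-positive libraries on the full lists, which 48.5% of all genes did. At 38000 peaks ectoderm had 6 and 6 and the sorted cells 3 and 7, so the groups overlapped. Sox2-positive replicate 1 had a single peak nearest to Alx4, inside the gene (chr2:93648654-93650046), where replicate 2 and incisor also had their peaks of highest −log10 p within the gene body (3.70, 4.22 and 4.91). Ectoderm had higher values at this region (6.03 and 5.43), and lower molar had 3.10. Sox2-positive replicate 2 shared 3 more sites in the gene body with incisor, including the one at the lower gene end (chr2:93642493-93643726), and all 3 had no peak in Sox2-positive replicate 1. A region inside Ext2 (chr2:93755119-93755558) was open in all 5 P2 libraries and no ectoderm library. Incisor alone had a region next to the lower gene end (chr2:93641847-93642288) and another 22.6 kb away (chr2:93619461-93619855). Both ectoderm libraries shared 5 regions at the locus that no P2 library had. At 38000 peaks neither molar had a peak whose nearest gene was Alx4, and incisor had 6.

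**Figure D2:**
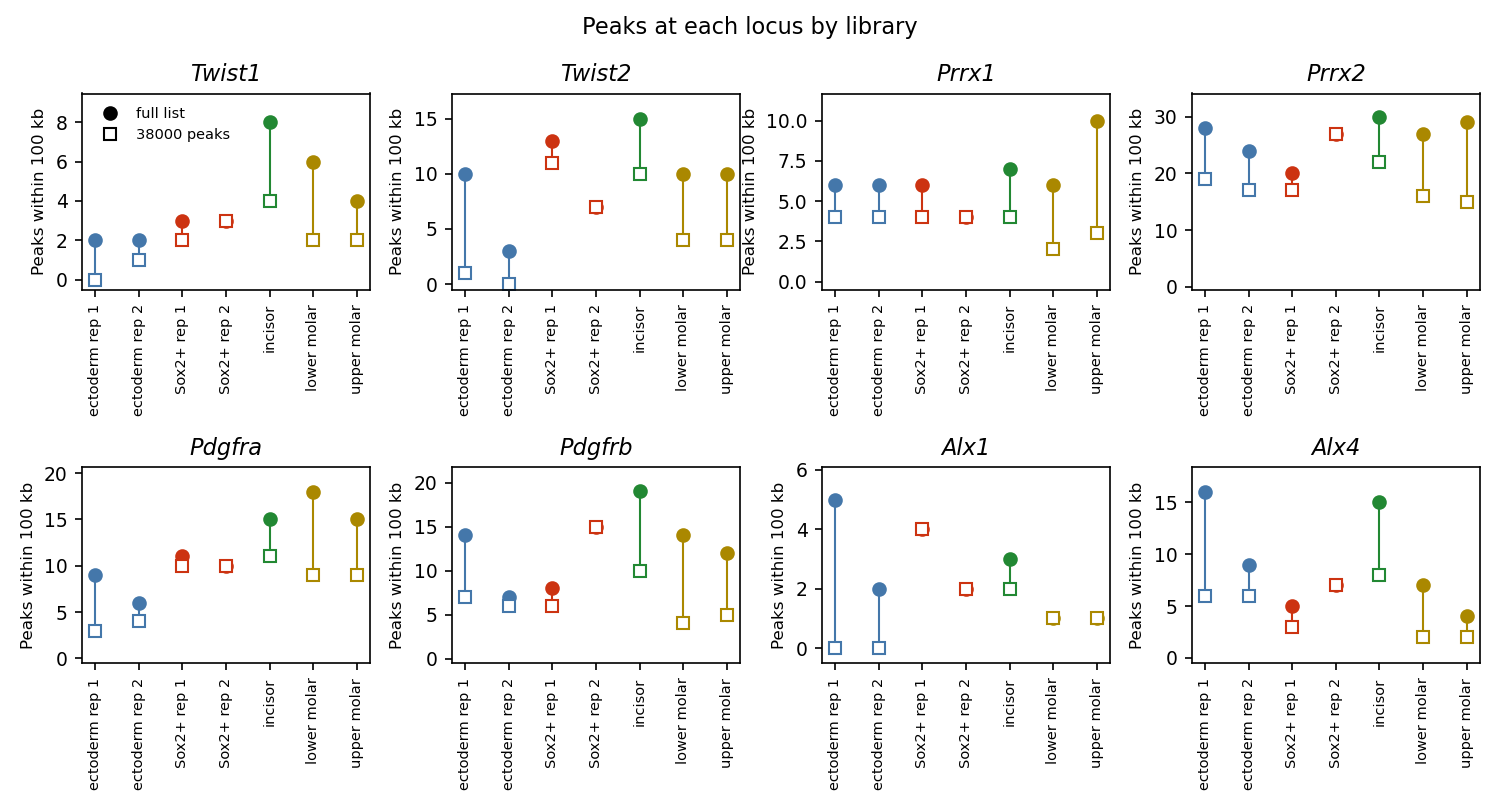
Number of peaks within 100 kb of each gene (y axes, each with its own scale) in the 7 libraries (x axes). Filled circles are full lists and open squares the 38000 peaks per library, joined by a line. At Twist2 the open squares of both Sox2-positive libraries and incisor (11, 7 and 10) stand above those of ectoderm and molars (0 to 4).

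**Figure D3:**
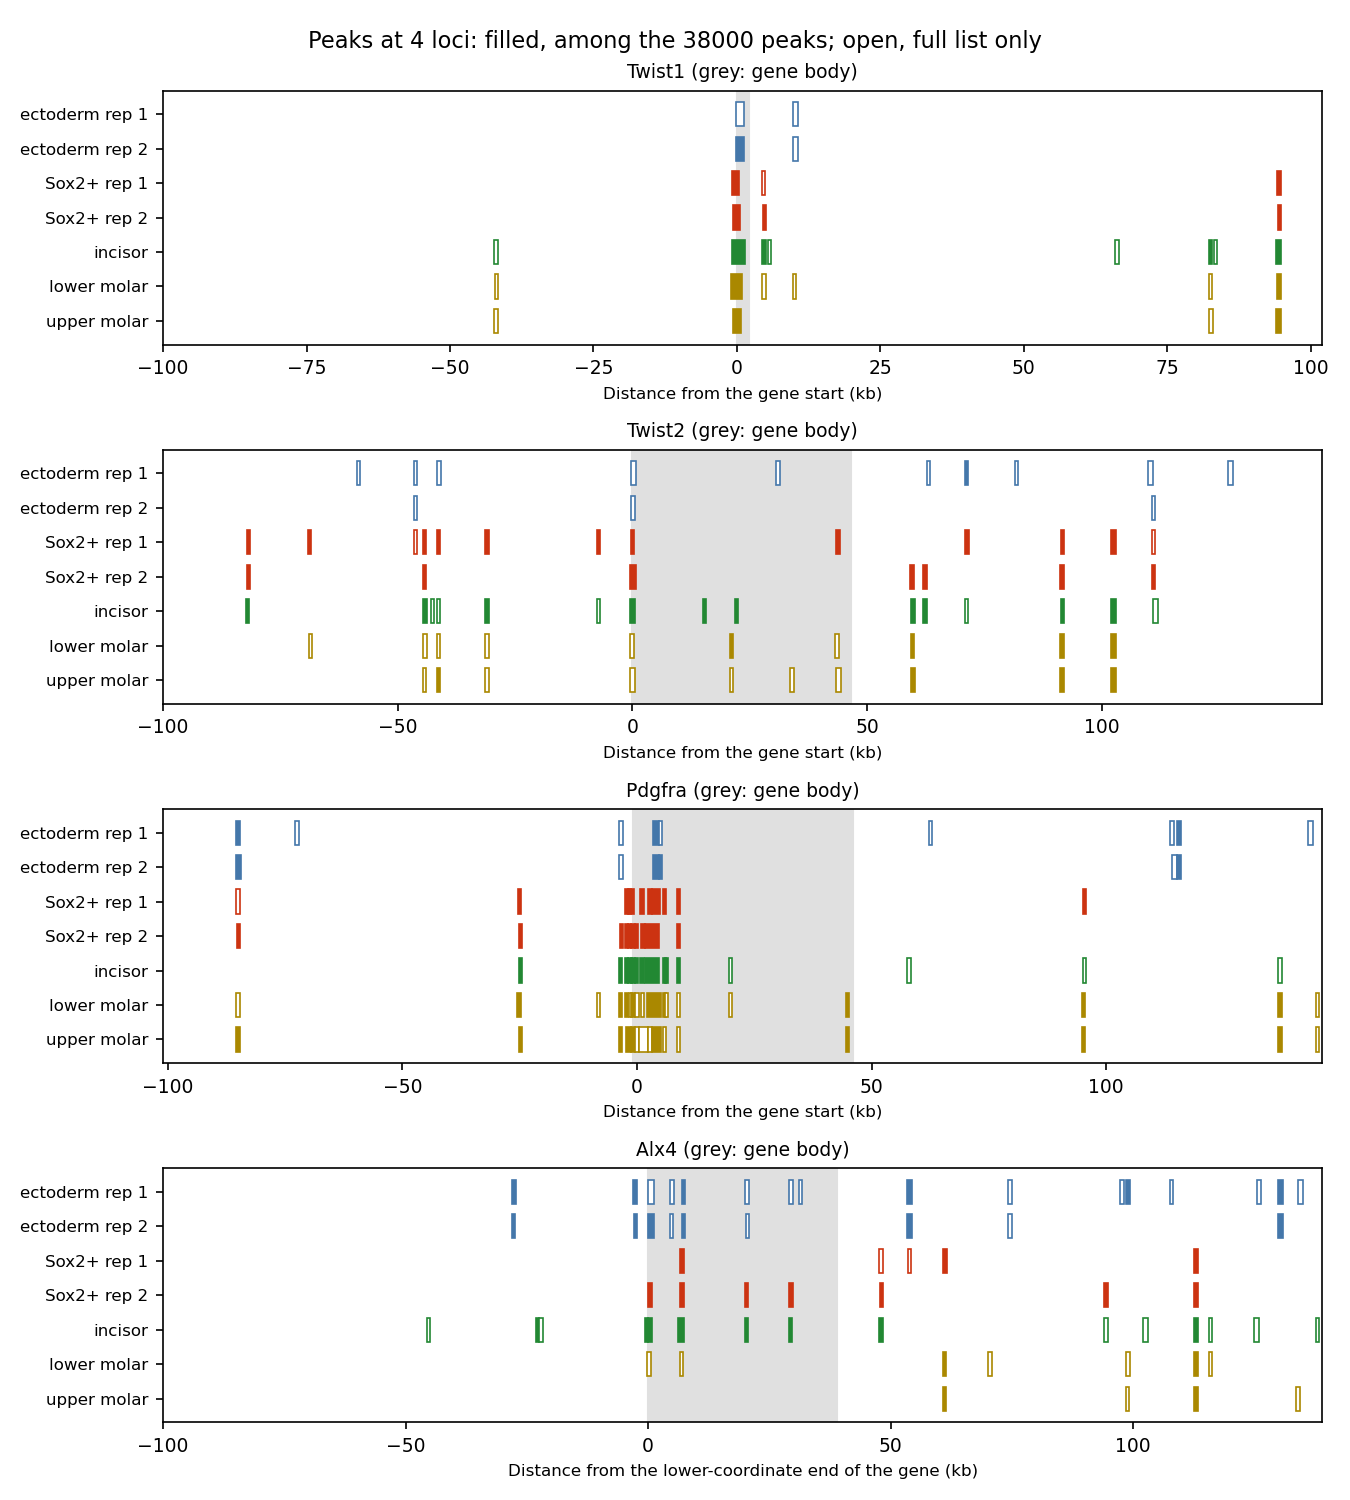
Positions of peaks in the windows of Twist1, Twist2, Pdgfra and Alx4, in kb from the gene start, or from the lower-coordinate end of the gene for Alx4 (x axes), with 1 row per library. Filled boxes are among the 38000 peaks of a library, open boxes are in its full list only, grey marks the gene body, and narrow peaks are drawn at a minimum width. At Twist2 the filled boxes number 11, 7 and 10 in the sorted and incisor rows and 1 and 0 in the ectoderm rows, whose other 9 and 3 peaks are open boxes.

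Peaks within 1 kb of a gene start (of either gene end for Pdgfrb, Alx1 and Alx4, whose strand the table did not give) were present in incisor at 8 of 8 genes, against 62.2% of all genes. In Sox2-positive cells 6 of 8 had one in both libraries, against 56.7% of all genes. The 2 others, Prrx2 and Alx4, had one in replicate 2. No gene of the 8 had a start peak in incisor and in neither Sox2-positive library, a pattern found in 2.33% of all genes (0 of 8 also at 38000 peaks, against 0.610%). At 38000 peaks the count in Sox2-positive cells stayed at 6 (55.8% of all genes) and that in incisor was 7 (56.6%). The counts for both ectoderm libraries fell from 5 (65.7% of all genes) to 1 (60.1%), and for both molars from 6 (62.3%) to 3 (55.6%). Twist2, Pdgfra and Alx1 then had a start peak in each sorted library and in no ectoderm list, which held for 0.992% of all genes. On the full lists this was so for Pdgfra alone (0.397% of all genes), because both ectoderm libraries had a start peak at Twist2 and Alx1. The ectoderm lists of 38000 peaks ended at a −log10 p of 4.79 and 3.82, against 3.33 and 2.94 in the sorted cells. A start peak in all 7 libraries was found for Twist1, Twist2 and Pdgfrb (3 of 8, against 55.7% of all genes), and at 38000 peaks for Pdgfrb alone (1 of 8, against 51.4%).

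Region by region, nearly everything both Sox2-positive libraries had at these loci was also in incisor. When the sorted and incisor lists were joined, 47 of 49 regions found in both Sox2-positive libraries had an incisor peak (95.9%, Wilson 95% interval 86.3 to 98.9), against 95.5% of such regions over all autosomes. At 38000 peaks this was 40 of 41 (97.6%, 87.4 to 99.6), against 86.4%. The 21 regions nearest to one of the 8 genes themselves all had an incisor peak. Conversely, 30 of 111 incisor regions had no peak in either Sox2-positive library (27%, 19.6 to 36.0), against 33.7% over all autosomes. At 38000 peaks 7 of 71 had none (9.86%, 4.86 to 19.0), against 16.9%. The share of incisor sites missing from the sorted cells was thus not above the genome-wide share with either kind of list, and both genome-wide values lie inside the intervals. Leaving out Sox2-positive replicate 1 gave 36.9% missing (44.2% genome-wide), and leaving out replicate 2 gave 47.3% (44.8% genome-wide). With the top 50% of each list the order turned, at 44.8% of 58 incisor regions against 33.3% genome-wide.

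**Figure D4:**
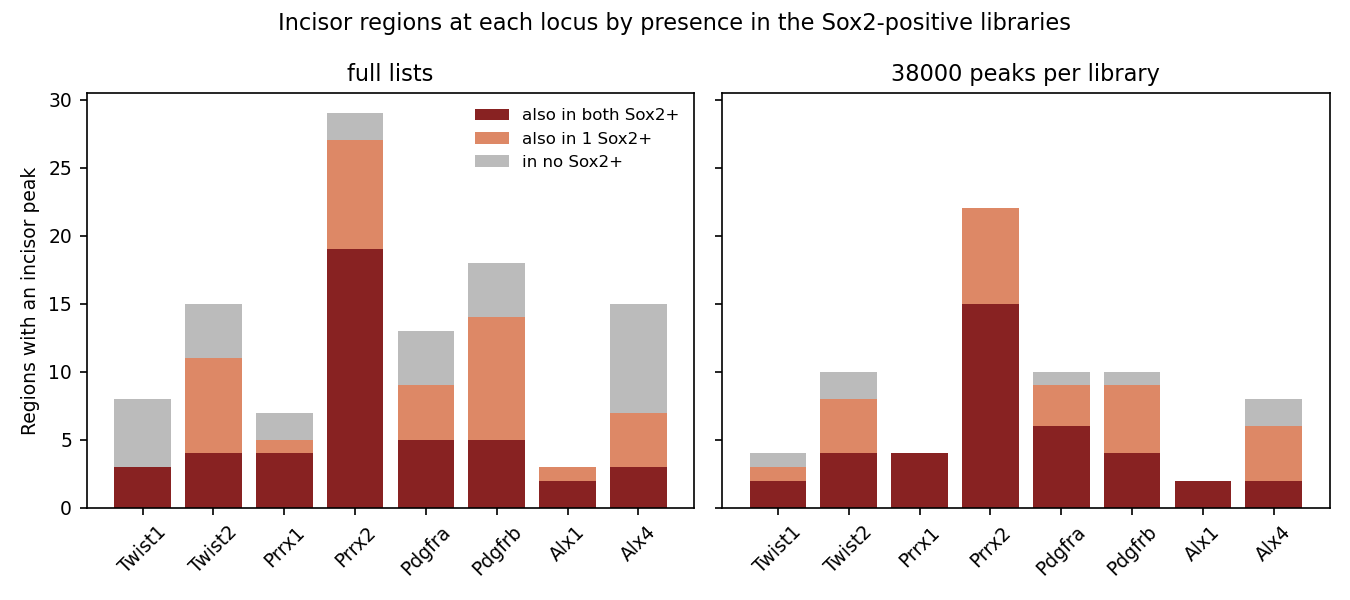
Number of regions with an incisor peak at each of the 8 loci (y axis), from all 7 lists joined, split by whether both, 1 or neither Sox2-positive library also had a peak. At 38000 peaks per library (right) 7 incisor regions at the loci were in neither, against 29 on the full lists (left).

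By gene, incisor had more peaks than both Sox2-positive libraries at 7 of 8 loci on the full lists, where 63.3% of all genes showed this and the incisor list was the longer. At 38000 peaks 3 of 8 did (Twist1, Pdgfra and Alx4), against 17.3% of all genes, and at the other 5 the incisor count equalled or lay between the sorted ones, against 59.7%. At no locus was incisor below both with either kind of list (2.17% and 23.0% of all genes).

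At equal list length incisor and the sorted cells stood apart from the molars at most loci. At 38000 peaks incisor had more peaks than both molars at 8 of 8 loci, against 26.7% of all genes (0 of 8 fewer, against 25.9%), and both Sox2-positive libraries had more than both molars at 7 of 8, against 19.5%. Twist1 was the exception, where Sox2-positive replicate 1 and both molars had 2 peaks each. On the full lists incisor exceeded both molars at 6 of 8 (19.2% of all genes) and the sorted cells did so at Alx1 alone (0.808%), while both molars exceeded both sorted libraries at Twist1 and Pdgfra (2 of 8, against 66.3%). Of the 70 incisor regions at 38000 peaks, 33 had no peak in either molar (47.1%, against 25.2% over all autosomes), and 27 of these 33 had a peak in at least 1 Sox2-positive library (81.8%, against 61.3%). On the full lists 34 of 108 incisor regions had none in a molar (31.5%, against 19.7%), 11 of them at Alx4 and 8 at Twist2.

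Against ectoderm, 17 of the 49 regions that both Sox2-positive libraries had were in neither ectoderm library (34.7%, Wilson 95% interval 22.9 to 48.7), where 27.1% were over all autosomes. At 38000 peaks these were 21 of 41 (51.2%, 36.5 to 65.7), against 34.5%. Among regions nearest to one of the 8 genes they were 12 of 21 (57.1%, 36.5 to 75.5) and, at 38000 peaks, 15 of 19 (78.9%, 56.7 to 91.5). In the other direction 19 of 57 regions found in both ectoderm libraries were in neither Sox2-positive library (33.3%, 22.5 to 46.3), against 48.6% over all autosomes, and at 38000 peaks 10 of 32 (31.2%, 18.0 to 48.6), against 37.4%. By gene at 38000 peaks, both Sox2-positive libraries exceeded both ectoderm libraries at 4 of 8 loci (Twist1, Twist2, Pdgfra and Alx1), against 20.7% of all genes. The reverse held at none, against 22.5%.

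The Sox2-positive replicates differed from each other at particular loci. At 38000 peaks replicate 2 had more peaks at Prrx2 (27 against 17), Pdgfrb (15 against 6) and Alx4 (7 against 3), and replicate 1 had more at Twist2 (11 against 7) and Alx1 (4 against 2). Both had 4 at Prrx1 and 10 at Pdgfra. Single-library statements about Prrx2, Pdgfrb and Alx4 therefore rest on replicate 2.

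Among 16 related genes (the PDGF ligands, Twist partners and other mesenchymal factors), the summed count at 38000 peaks was 144 and 172 in the sorted cells, 150 in incisor, 146 and 148 in ectoderm, 126 in lower molar and 129 in upper molar, so the sorted and ectoderm libraries overlapped. The sorted cells exceeded ectoderm in every pairing at 4 of 16 (Tcf3, Hand2, Snai1 and Zeb1; 20.7% of all genes), and ectoderm exceeded the sorted cells at 2 (Pdgfc and Snai2; 22.5%). On the full lists these counts were 0 and 7 of 16 (1.92% and 48.5% of all genes). Hand2, a helix-loop-helix factor of the distal arch, had 8 and 7 in the sorted cells and 8 in incisor, 2 and 3 in ectoderm and 1 in each molar, all at 38000 peaks. It had a start peak in the sorted cells and incisor alone at that list length. Of the ligands, Pdgfa had 12 and 16 peaks in the sorted cells, 9 in incisor, and 16 and 17 in ectoderm. Pdgfc had 6 and 5 in the sorted cells, 7 in incisor, and 17 and 13 in ectoderm.

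Markers of the tissues that a sort could hold gave values on the same scale, as summed peaks within 100 kb per 1000 autosomal peaks at 38000 peaks per library (a peak near 2 genes counts for each). For 14 mesenchyme markers the sum was 2.71 and 3.16 in the sorted cells, 3.37 in incisor, 1.89 and 2.11 in ectoderm, and 2.71 and 2.74 in the molars. Of these 14, 11 had a start peak in Sox2-positive replicate 1 and 11 in replicate 2, 10 in incisor and 9 and 10 in ectoderm. The sorted sets were not the same, as Lum had one in replicate 1 alone and Postn in replicate 2 alone. Over all genes the share with one was 58.4% and 58.3% in the sorted cells, 56.6% in incisor and 60.9% and 62.9% in ectoderm. Near Col1a1 the sorted cells had 22 and 24 peaks and incisor 25, against 11 in each ectoderm library, while Col3a1 had 0 in the sorted cells and incisor. For 12 epithelium markers the sum was 2.84 and 2.92 in the sorted cells, 2.82 in incisor, 3.61 and 3.47 in ectoderm, and 3.39 and 3.24 in the molars. In each Sox2-positive library 11 of the 12 had a start peak, against 7 in incisor: Sox2, Epcam, Grhl2 and Cldn4 had one in both sorted libraries and none in incisor. On the full lists Sox2, Epcam and Grhl2 had one in incisor too, and 10 of 12 did in all. The start of Sox2, the gene of the reporter, had a peak in all 7 libraries on the full lists. At 38000 peaks it had one in both sorted and both ectoderm libraries and in no whole tooth. Both sorted libraries exceeded both ectoderm libraries at 6 of the 14 mesenchyme markers (20.7% of all genes) and lay below them at 2 (Fn1 and Lhx6; 22.5% of all genes). How far admixed mesenchymal cells take part in the peaks at the 8 loci was not tested.

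**Figure D5:**
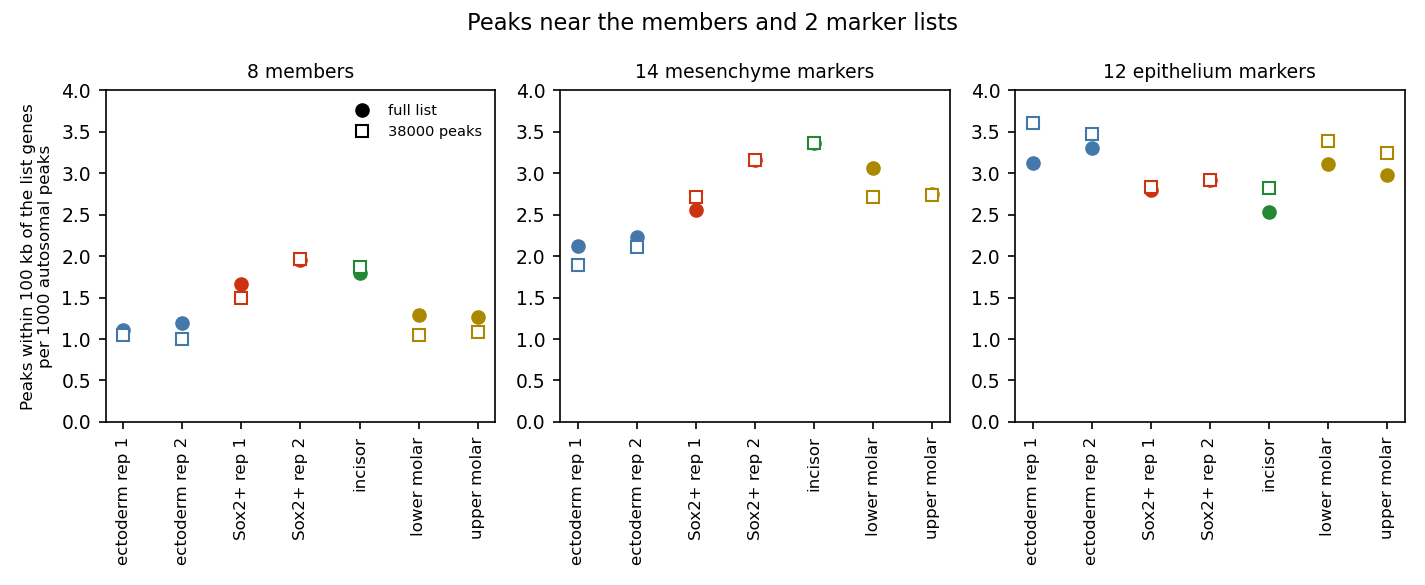
Peaks within 100 kb of the genes of a list, summed over its genes and divided by 1000 autosomal peaks of the library (y axis), for the 8 genes, 14 mesenchyme markers and 12 epithelium markers in the 7 libraries (x axis). Filled circles are full lists and open squares the 38000 peaks. The sorted cells lie above ectoderm for the first 2 lists and below it for the epithelium markers. For the mesenchyme markers Sox2-positive replicate 1 on the full lists (2.56) lies nearer to ectoderm (2.12 and 2.23) than to incisor (3.37). At 38000 peaks it (2.71) lies between ectoderm (1.89 and 2.11) and incisor (3.37).

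Markers of other cell types gave the following sums. At 38000 peaks 8 endothelial markers gave 1.18 in both sorted libraries and in incisor and 1.00 and 1.16 in ectoderm, with 2 start peaks in each of these 5 libraries. Both sorted libraries exceeded both ectoderm libraries at 3 of the 8 (Kdr, Tek and Emcn; 20.7% of all genes) and lay below them at 0 (22.5% of all genes). For 7 blood and immune markers the sum was 1.39 and 1.58 in the sorted cells and 1.53 in incisor. It was 1.32 and 1.37 in ectoderm. Of these 7, Ptprc (8 and 7 peaks in the sorted cells, 2 in each ectoderm library) and Laptm5 were above ectoderm in both sorted libraries, and Cx3cr1 and Itgam below. For 6 pericyte and smooth muscle markers it was 1.21 and 1.26 in the sorted cells, 1.11 in incisor and 1.08 and 1.11 in ectoderm. Of these 6, Cspg4 (15 and 20 peaks in the sorted cells, 10 and 11 in ectoderm) and Kcnj8 were above ectoderm in both sorted libraries, and Rgs5 and Notch3 below. Start peaks were found at 5 and 4 of the 6 in the sorted cells, at 5 and 4 in ectoderm and at 4 in incisor. The share of all genes with one was 58.4% and 58.3% in the sorted cells. For 5 Schwann and neural markers the values were 1.37 and 1.55 in the sorted cells, 1.18 in incisor and 1.42 and 1.45 in ectoderm. For 4 muscle markers they were 0.526 and 0.50 in the sorted cells, 0.421 in incisor and 0.658 and 0.684 in ectoderm. The sorted cells thus overlapped with ectoderm for the first of these lists and lay below it for the second. Ptprc and Pecam1, defining genes of blood and endothelium, had no start peak in any library. Other members of these lists did: Spi1 had one in all 7 libraries, Tyrobp in both sorted libraries and no other, and Kdr in both sorted and both ectoderm libraries at 38000 peaks and in all 7 on the full lists. The part of these cell types in the peaks at the 8 loci was not tested.

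The genes whose peak number followed the sum over the 8 loci most closely across the 7 libraries, at 38000 peaks and among 17155 genes with at least 10 peaks over the 7 lists and no shared window, were Exd1, Chp1, Cd300lb, Itpr2 and Htra1 (Pearson r 0.996, 0.996, 0.996, 0.995 and 0.991 over 7 libraries, as a description). The libraries share their tissue of origin in part, and a choice among so many genes favours high values. Itpr2 had 10 and 13 peaks in the sorted cells, 13 in incisor, 6 and 5 in ectoderm and 6 in each molar. For the other 4 the range was narrower, such as 5 to 7 peaks for Exd1.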

How the data were processed

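In all, 7 mouse ATAC-seq libraries in 5 groups were compared through their deposited peak lists, 1 list per library; groups and replicate numbers came from the sample titles. Per the submitters' processing notes the tools were FastQC, Trimmomatic, Bowtie2, deepTools and Genrich and the build mm10; versions, options, read filters and the shift for the transposase are not given in the sources used here. The deposited signal of a peak (200.0 or more in every list) and its deposited −log10 p were used to rank peaks within a list; the deposited score was not used. Nothing states a normalization between libraries. Genes and promoters came from RefSeq, GRCm38.p6, the assembly of mm10. Peaks were joined into regions where they shared 1 bp. Lists of 38000 peaks were taken by −log10 p with ties broken by signal. Counts were made with Python 3.11.15 and pandas 2.3.3 and tested on simulated data. Tests were exact permutations over libraries. No test was made across regions, which are not replicates, so Wilson intervals cover counting only. The 8 genes, the marker lists and the related genes were chosen with earlier results of these data known. Named regions were those at gene starts, the 2 strongest per locus in both Sox2-positive libraries, the 2 strongest in incisor without them, and those in both without incisor; others were named after their values were seen. Alternatives are given in the closing section. Of the related genes, 1 is not reported here and was left out of their counts.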

Additional observations from a re-analysis of the deposited data

How the results depend on the processing

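The following directions held under every alternative run. The incisor count stayed above the Sox2-positive mean (39.5 more peaks; 5.0 to 42.0 over 17 alternatives). The ectoderm share stayed below the Sox2-positive share under 20, and the whole-tooth share under 17.

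The incisor minus Sox2-positive share, −0.00109 percentage points, changed sign under 10 of 17 alternatives, all within a range smaller than the gap between the replicates except the top 50% of each list. It was 0.0132 with 38000 peaks by −log10 p or by signal, 0.0493 with the top 50% of each list, 0.00305 with 25 kb windows and 0.00444 with nearest genes. It was 2.46e-05 without the Prrx1 locus, 0.00971 without Prrx2, 0.000941 without Pdgfra and 0.00147 without Alx1. Leaving out Sox2-positive replicate 1 or 2 gave −0.0153 and 0.0131.

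Incisor regions without a Sox2-positive peak, 27%, became 9.86% and 11.3% with 38000 peaks by −log10 p or signal, 44.8% with the top 50% of each list (33.3% over all autosomes), and 36.9% to 47.3% without a Sox2-positive replicate. Sox2-positive regions with an incisor peak, 95.9%, became 100% with the top 50%, with 25 or 50 kb windows and with nearest genes, and 85.5% to 94.6% without a replicate.

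Ectoderm-only regions, 19, became 10 and 7 with 38000 peaks by −log10 p or signal, 10 with the top 50%, 7 and 11 with 25 and 50 kb windows, 10 with nearest genes, and 20 to 46 without 1 library (46 without ectoderm replicate 2). Sox2-positive-only regions, 17, became 7 with the top 50%, 11 with 25 kb windows and 18 to 36 without 1 library (36 and 32 without Sox2-positive replicate 1 or 2). The 6 genes with a start peak in both Sox2-positive libraries became 3 with the top 50%. The cause of these shifts was not tested, beyond the shorter lists and smaller windows themselves.

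Ectoderm and Sox2-positive libraries share replicate numbers and nothing else that would pair them. The correlation of the replicate differences over 20665 genes was 0.0485 (−0.0253 with 38000 peaks). With the replicate block the difference in share was again −0.0665, with an exact p of 0.50, the smallest that 2 pairs allow. The nearest-gene alternative was chosen after seeing the data.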
